A study of Homo sapiens with 4 samples.

Results

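The 10 genes described here encode the core proteins of heparan sulfate proteoglycans: the glypicans GPC1, GPC3, GPC4 and GPC6, the syndecans SDC1, SDC2, SDC3 and SDC4, and the matrix proteins agrin (AGRN) and perlecan (HSPG2). They were chosen by name, as the glypican, syndecan and heparan sulfate matrix protein genes of interest, and all 10 were found among the 19729 genes listed. RNA-Seq was performed on HT-29 cells, a colorectal cancer (CRC) cell line that the labels give as MSS (microsatellite stable), BRAF-V600E and APC-mutant. The cells carried a lentiviral, doxycycline (DOX)-inducible short hairpin RNA (shRNA) directed at APC or a non-silencing hairpin (NonS) that served as the control, and were used at passage 3 to 5 after transduction. Both conditions received 500 ng/ml DOX for 72 h, so the control libraries share the vector and the drug. Each condition was sequenced in biological duplicate (replicates I and II), 4 libraries in all. A single hairpin in a single cell line was sequenced, so that an effect of losing APC and an effect of this hairpin or of this transduction cannot be told apart.

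A heparan sulfate proteoglycan is a core protein to which long sulfated sugar chains are attached. Syndecans span the plasma membrane and bind cytoskeletal adaptors through short cytoplasmic tails, glypicans sit on the outer leaflet through a glycosylphosphatidylinositol anchor, and agrin and perlecan are large secreted proteins of basement membranes. The chains bind fibroblast growth factors, Wnt proteins and other ligands, with an affinity set by their pattern of sulfation. Agrin and perlecan also end in laminin globular domains, which bind the matriglycan that LARGE enzymes build on dystroglycan. APC is part of the complex that degrades β-catenin, and the comparison asks which genes follow when its remaining truncated form in HT-29 cells is silenced.

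The deposited values are whole numbers per gene and library that behave like length-scaled, rounded expression values rather than read counts, and this was inferred from the values. Read depth is therefore unknown, and a value of 1 can stand for any level from 0.5 to 1.5 if rounding was to the nearest whole number. The values of a library summed to between 398338 and 413595. APC itself read 3 and 0 in the NonS libraries and 0 in both APC shRNA libraries, too low to check the labels. The Wnt target genes AXIN2 (16 and 22 in NonS, 124 and 178 upon APC silencing) and NKD1 (0 and 0, 28 and 36) followed them, as did LARGE2 (2 and 1, 27 and 32). The epithelial keratins KRT8 and KRT18 were the highest of the marker genes in every library. Of the 12 colonic markers, 8 were tested, 0 were called higher and 1 was called lower, LGALS4, which fell from 557 and 646 to 175 and 147. Over all genes tested 4.33% were called higher and 3.7% lower. Without a call, CDH1 (98 and 119 in NonS, 74 and 85 upon APC silencing) lay lower and VIL1 (29 and 31, 39 and 35) higher. CDH17 was at 1 and 2 in NonS and at 0 upon APC silencing. EPCAM (201 and 183 in NonS, 186 and 224 upon APC silencing) and KRT20 (180 and 266, 195 and 247) overlapped between the conditions. CDX1 and GPA33 were each at 2 and 2 in NonS and at 0 upon APC silencing, and CDX2 was at 0 in NonS and at 2 and 4 upon APC silencing. All 8 fibroblast markers and all 5 endothelial markers were at 0, and the leukocyte markers CD14 and CD68 did not exceed 6. In bulk RNA, fewer cells with a transcript and less of it per cell cannot be told apart.

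The promoters of the pair of tested members with the widest shifts between the conditions, HSPG2 and GPC1, are shown because a TCF7L2 motif is the usual landmark sought in genes that respond to APC. Each stretch holds the 250 bases before the RefSeq start site (GRCh38.p14), 5′ to 3′ on the strand of the gene, with the GC box GGGCGG or its reverse complement CCGCCC in capitals. The first lies at chr1:21937311-21937560 on the minus strand and the second at chr2:240435413-240435662 on the plus strand.
HSPG2: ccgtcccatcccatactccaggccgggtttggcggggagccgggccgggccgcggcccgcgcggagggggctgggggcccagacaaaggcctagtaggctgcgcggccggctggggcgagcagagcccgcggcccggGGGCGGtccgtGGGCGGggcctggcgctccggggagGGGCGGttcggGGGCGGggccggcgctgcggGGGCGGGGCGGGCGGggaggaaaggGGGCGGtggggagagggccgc
GPC1: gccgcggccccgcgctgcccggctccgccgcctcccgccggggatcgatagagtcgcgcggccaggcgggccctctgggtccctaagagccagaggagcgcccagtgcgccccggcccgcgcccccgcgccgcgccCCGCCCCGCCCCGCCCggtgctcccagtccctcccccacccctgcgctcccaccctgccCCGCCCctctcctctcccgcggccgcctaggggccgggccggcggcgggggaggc

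The HSPG2 stretch was 82.8% G or C and held 8 GC boxes, counting overlapping ones, and the GPC1 stretch was 84.0% G or C and held 4. The TCF core CTTTGA was searched on both strands and was in neither. RefSeq windows that also take in the first 50 bases of the transcript were on hand for 7 of the 10 members, in 8 windows. Among them CTTTGA occurred in GPC6 alone, against 12.9% of 35116 promoters of the same length, and a GC box occurred in each of these members but GPC6, against 45.0% of promoters. These letter matches are descriptions of the windows and not binding sites. The paper places the TCF7L2 site of LARGE2 in its first intron, and sequence further into the genes of the members was not searched.

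Perlecan was the single member that passed the test. HSPG2 (chromosome 1, 21822245 to 21937297, GRCh38, 97 exons in its longest transcript) was at 63 and 80 in the NonS libraries and at 25 and 28 upon APC silencing. Both APC shRNA libraries lay far under both NonS libraries, with means of 26.5 ± 2.12 (SD, n = 2) and 71.5 ± 12.0 (SD, n = 2) and a ratio of 0.371. On the log2(value + 1) scale HSPG2 fell by 1.39 (SE 0.16, adjusted p = 0.0465 in limma, adjusted over the 5376 genes whose mean reached 10). The fall was 1.30 between the replicates I and 1.48 between the replicates II. Of the genes tested, 39 fell further. HSPG2 kept its direction without each library in turn, but its adjusted p was then 0.181 to 0.217, in fits in which no gene passed. It also missed the threshold when genes of lower value entered the test, at 0.0558 with a mean of at least 5 and 0.0596 with every gene above 0.

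Perlecan shares 2121 exonic bases with LDLRAD2, a gene on the opposite strand. The paper names a stranded mRNA library kit, but the strand setting of the authors' counting is not given in the sources used here. LDLRAD2 values were 17 and 20 in NonS against 7 and 8 upon APC silencing. The ratio of HSPG2 to LDLRAD2 stayed between 3.5 and 4.0 in the 4 libraries. Whether the reads of 1 of these genes were counted for the other was not tested.

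Agrin, the other matrix proteoglycan and an organiser of neuromuscular and epithelial basement membranes, had the highest values of the 10. AGRN (chromosome 1, 1020123 to 1056118) was at 131 and 191 in NonS against 145 and 188 upon APC silencing. The conditions overlapped completely, with a log2 difference of 0.06 (SE 0.27, adjusted p = 0.884). The ratio of AGRN to HSPG2 was 2.08 and 2.39 in NonS and 5.8 and 6.71 upon APC silencing. The balance between these RNAs thus moved, while AGRN itself showed no difference beyond its replicate spread.

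**Figure D1:**
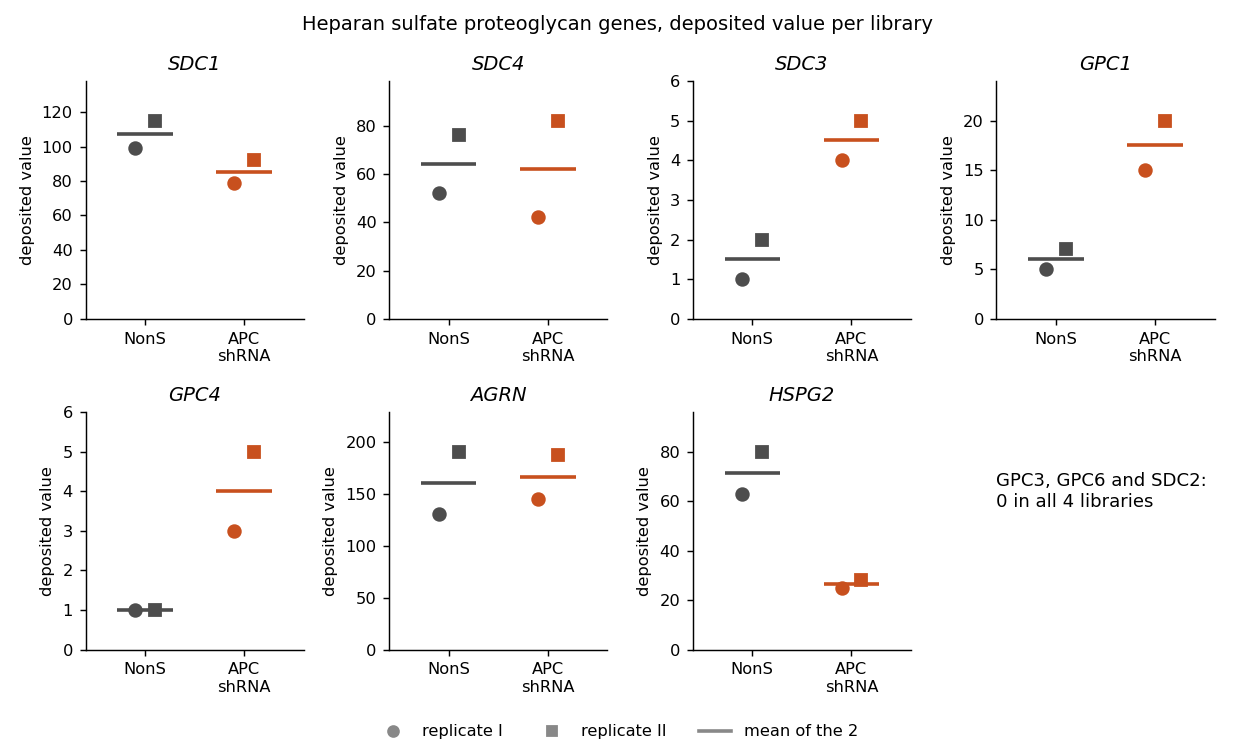
Deposited values (linear axes from 0, a separate scale for each gene) of the 7 members listed above 0, with circles for replicate I, squares for replicate II and a line at the mean of the 2 libraries. HSPG2 and SDC1 lie lower and GPC1, GPC4 and SDC3 higher in both APC shRNA libraries, while SDC4 and AGRN overlap between the conditions.

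Syndecan-1, the main syndecan of simple epithelia, was the second highest member. SDC1 (chromosome 2, 20200797 to 20225433) was at 99 and 115 in NonS and at 79 and 92 upon APC silencing. Both APC shRNA libraries were below both NonS libraries, by a log2 difference of -0.32 (SE 0.13) that did not pass (adjusted p = 0.201 in limma). The difference was -0.32 in each replicate.

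Syndecan-4, a focal adhesion component, differed more between the replicate numbers than between the conditions. SDC4 (chromosome 20, 45325288 to 45348424) was at 52 and 76 in NonS against 42 and 82 upon APC silencing. Its log2 difference between conditions was -0.10 (SE 0.44, adjusted p = 0.889), whereas replicate II exceeded replicate I by 0.54 in NonS and by 0.95 in APC shRNA cells. Leaving out NonS II or APC shRNA I turned the sign of the difference, to 0.17 and 0.38.

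Agrin had the same ordering, with replicate II above replicate I by 0.54 in NonS and by 0.37 in APC shRNA cells. Both replicate II libraries exceeded both replicate I libraries for SDC4 and AGRN, an arrangement found in 11.8% of the genes tested. The series describes the experiment as repeated but does not say what libraries of the same number have in common. HSPG2, GPC1 and SDC1 were also somewhat higher in replicate II within each condition. Over the 5376 genes tested, the difference between replicates II and I had the same sign in both conditions for 3355, counting either direction.

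**Figure D2:**
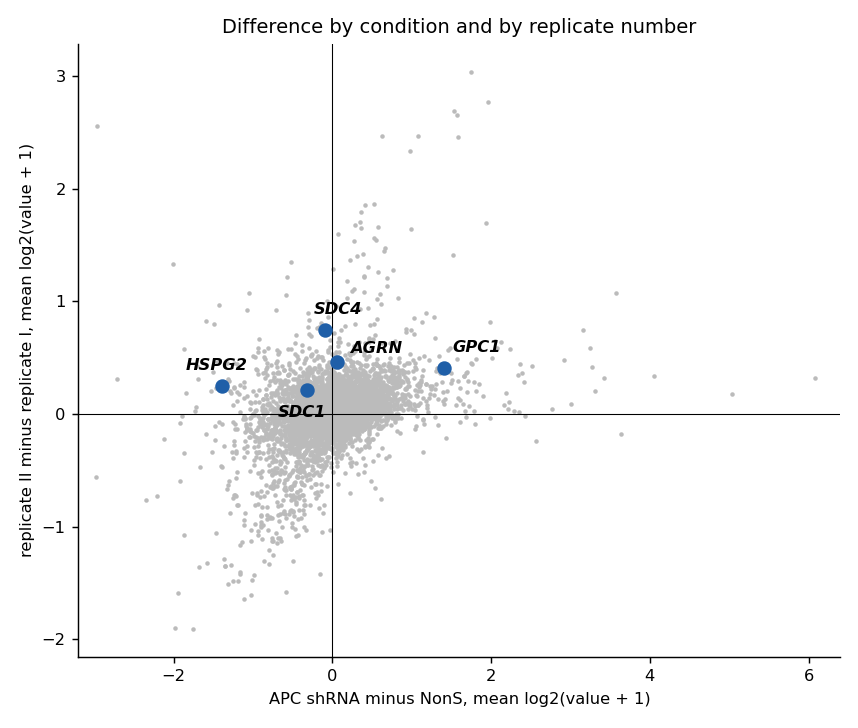
Difference between APC shRNA and NonS (x axis) against the difference between replicates II and I (y axis), both as means of log2(value + 1), for the 5376 genes tested (grey) and the 5 members among them (blue). HSPG2 and GPC1 stand apart along the condition axis, and SDC4 and AGRN lie near 0 on it and above 0 on the replicate axis.

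Syndecan-3, known mainly from nervous tissue, was close to the lower limit of the values. SDC3 (chromosome 1, 30869467 to 30908761) was at 1 and 2 in NonS and at 4 and 5 upon APC silencing, a ratio of means of 3.0 that rounding alone could place anywhere from 2.0 to 5.0. Its mean was under 10 and it was not tested. SDC2, the syndecan of mesenchymal cells, was listed at 0 in all 4 libraries.

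Glypican-1, which is widely expressed in epithelia and stroma, had the highest values of the glypicans. GPC1 (chromosome 2, 240435671 to 240468078) was at 5 and 7 in NonS and at 15 and 20 upon APC silencing. The conditions did not overlap, with means of 6.0 ± 1.41 and 17.5 ± 3.54 (SD, n = 2 each) and a ratio of 2.92, or 2.62 to 3.27 within rounding. The log2 difference was 1.40 (SE 0.23) and narrowly missed the threshold (adjusted p = 0.0629 in limma). It was 1.42 between the replicates I and 1.39 between the replicates II, and 76 genes rose further. GPC1 entered the test through its APC shRNA values alone.

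The GPC1 call changed with the processing. With the 3 other scalings of the libraries the adjusted p was 0.0271 to 0.0307, with robust moderation it was 0.0281, and after a correction for GC content the difference was 1.26 with an adjusted p of 0.0217. Differences across genes had a Pearson correlation of 0.228 with the GC content of the transcript (n = 5364 genes, which share the 4 libraries), and GPC1 transcripts are 66.7% G or C. HSPG2 transcripts are 64.5% G or C, and their difference was -1.52 after that correction.

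Glypican-4 was nearly silent in NonS cells. GPC4 (chromosome X, 133300103 to 133415490) was at 1 and 1 in NonS and at 3 and 5 upon APC silencing, a ratio of means of 4.0 with rounding limits of 2.33 and 9.0, and was not tested. GPC3, its neighbour on chromosome X and an oncofetal glypican of liver, was listed at 0 in all 4 libraries, and so was GPC6 on chromosome 13. In GPC2, a further glypican that was named after its values were seen, the values were 1 and 1 in NonS and 5 and 5 upon APC silencing.

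Counted together, 5 of the 10 members were tested, 1 was called lower and 0 were called higher. In limma, 3.7% of the 5376 genes tested were called lower, 4.33% higher and 8.04% in either direction, so that 1 call among 5 genes stands near that background. At an unadjusted p under 0.05 in limma there was 1 member in each direction, GPC1 (higher) and HSPG2 (lower). The same cut was met by 1065 rising and 847 falling genes among all 5376. A count of 1 among 5 in each direction therefore stands near the background too. The study's thresholds ask for more than a 4-fold change together with an adjusted p under 0.01. With them limma called 0.0% of the genes tested and 0 members, although 1912 genes had an unadjusted p under 0.05. No gene could have passed, since the smallest adjusted p in this limma fit was 0.0423. With DESeq2 the paper reported both upregulated and downregulated genes at these thresholds. An exact permutation test of 2 libraries against 2 cannot give a p below 0.33.

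Without regard to a test, 2 tested members (HSPG2 and SDC1) had both APC shRNA libraries below both NonS libraries, as did 27.5% of the genes tested. A single tested member (GPC1) had both above, as did 33.0%. The pair of members with means from 1 to under 10, GPC4 and SDC3, both lay above. Among all 6410 genes in that range, 20.8% lay above and 14.3% below.

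On a length-scaled reading of the values, the order of the members in NonS cells was AGRN, SDC1, HSPG2, SDC4, GPC1, SDC3 and GPC4. HSPG2 overlapped with SDC4 across the NonS libraries but was the higher within each, at 63 against 52 and 80 against 76. SDC3 (1 and 2) and GPC4 (1 and 1) could not be ordered. Upon APC silencing SDC4 stood above HSPG2 without overlap. SDC1 then overlapped with SDC4 across the APC shRNA libraries but was the higher within each, at 79 against 42 and 92 against 82. In NonS cells the mean of AGRN exceeded that of 97.7% of the genes above 0, and the corresponding shares were 96.3% for SDC1, 94.1% for HSPG2, 93.3% for SDC4 and 44.1% for GPC1.

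As a share of the summed value of the 10 members, HSPG2 made up 17.9% and 16.9% in NonS and 7.99% and 6.67% upon APC silencing. AGRN made up 37.2% and 40.5% in NonS and 46.3% and 44.8% upon APC silencing. A share depends on every member in the sum, and the AGRN values themselves overlapped (131 and 191 in NonS, 145 and 188 upon APC silencing). The glypicans together went from 1.7% and 1.69% to 5.75% and 5.95%, most of it GPC1, and the syndecans stayed between 39.9% and 43.2% in the 4 libraries. The summed value itself was 352 and 472 in NonS and 313 and 420 in APC shRNA libraries, and overlapped between the conditions.

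**Figure D3:**
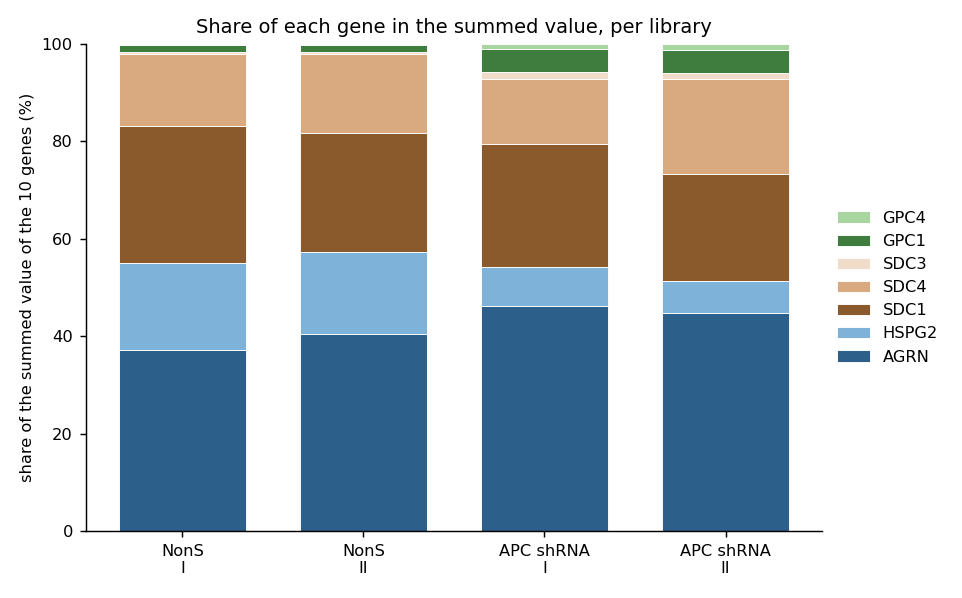
Share of each member in the summed deposited value of the 10 genes (stacked bars from 0 to 100%), for each of the 4 libraries. The HSPG2 share is 17.9% and 16.9% in NonS and 7.99% and 6.67% in APC shRNA libraries, and the GPC1 share is 1.42% and 1.48% in NonS and 4.79% and 4.76% in APC shRNA libraries.

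The enzymes and partners of the proteoglycans were followed in lists of 135 further genes. Of these, 51 were listed at 0 in all libraries and 37 were tested, of which 3 were called higher and 1 lower, with a median log2 difference of -0.06 against 0.03 over all genes tested. The share called in either direction over all genes tested was 8.04%, and 4 calls among 37 genes stand near it. The called genes were PAPSS1, HS6ST1 and NOTUM, which rose, and PAPSS2, which fell. The NonS values of PAPSS1 (17 and 17), HS6ST1 (7 and 7) and NOTUM (1 and 1) were tied whole numbers. Rounding can hide the spread between such replicates, so the SEs and adjusted p of these genes in limma may be too small. Each of the 4 lost its call when any library was left out, with adjusted p of 0.141 to 0.211, and kept its direction.

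The supply of activated sulfate held 2 of the 4 calls, in opposite directions. PAPSS1 and PAPSS2 each make PAPS, the sulfate donor of all Golgi sulfotransferases. PAPSS1 was at 17 and 17 in NonS and at 49 and 55 upon APC silencing, a log2 difference of 1.56 (SE 0.08, adjusted p = 0.0423 in limma). PAPSS2 went the other way, from 22 and 18 to 7 and 6, a log2 difference of -1.48 (SE 0.14, adjusted p = 0.0452 in limma). The ratio of PAPSS1 to PAPSS2 was 0.773 and 0.944 in NonS and 7.0 and 9.17 upon APC silencing. The pair was thus close in NonS cells, where rounding could make 17 and 18 in NonS II equal, and PAPSS1 was the higher upon APC silencing. PAPSS2 reached the mean of 10 through its NonS values alone. It shares 146 exonic bases with an antisense transcript.

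Of the 11 donor supply genes, 7 were tested and no other passed. SLC35B2, which carries PAPS into the Golgi, was level at 62 and 69 in NonS and 68 and 71 upon APC silencing (adjusted p = 0.497). Of the 11 genes, 5 had both APC shRNA libraries below both NonS libraries and 1, PAPSS1, had both above. Among the genes tested 27.5% lay below and 33.0% above, and among those with means from 1 to under 10 the shares were 14.3% and 20.8%.

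Among 16 genes of heparan sulfate sulfation and epimerisation, 10 were at 0 and 1 was tested. HS6ST1, a 6-O-sulfotransferase of the chain, rose from 7 and 7 to 13 and 14, a log2 difference of 0.86 (SE 0.07, adjusted p = 0.0423 in limma), and entered the test through its APC shRNA values. NDST1, which starts chain modification by N-deacetylation and N-sulfation, was at 6 and 6 in NonS and at 11 and 14 upon APC silencing and was not tested. Of the 6 genes of this list with a mean of at least 1, 3 had both APC shRNA libraries above both NonS libraries and 0 had both below. Among all genes with means from 1 to under 10, 20.8% lay above and 14.3% below, and among the genes tested 33.0% and 27.5%.

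The extracellular editing enzyme SULF2, which removes 6-O-sulfate groups, was at 52 and 51 in NonS and at 34 and 28 upon APC silencing. Its log2 difference of -0.72 (SE 0.12) did not pass (adjusted p = 0.0629 in limma). In its list of 12 editing and turnover genes, 5 were tested and none was called. GUSB, a lysosomal glucuronidase, was at 30 and 36 in NonS and at 22 and 26 upon APC silencing (adjusted p = 0.144).

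**Figure D4:**
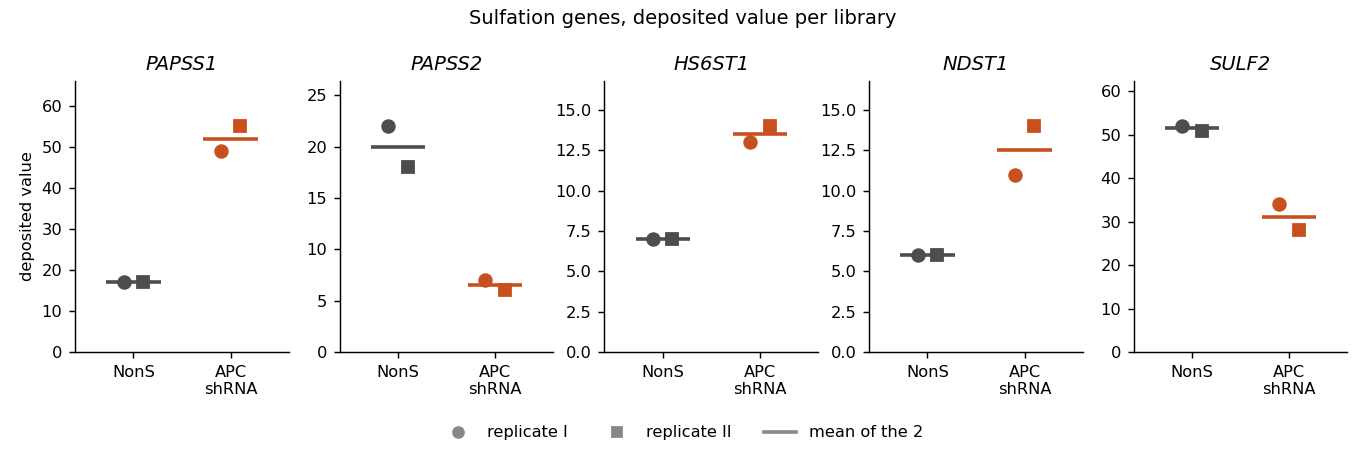
Deposited values (linear axes from 0, a separate scale for each gene) of 5 genes that supply, add or remove sulfate on heparan sulfate, with circles for replicate I, squares for replicate II and a line at the mean of the 2 libraries. PAPSS1, HS6ST1 and NDST1 lie higher and PAPSS2 and SULF2 lower in both APC shRNA libraries, of which PAPSS1, HS6ST1 and PAPSS2 passed the test.

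NOTUM, a secreted enzyme that takes the lipid off Wnt proteins and was first described as releasing glypicans from the membrane, had the widest rise among the genes tested on the log2(value + 1) scale. It was at 1 and 1 in NonS and at 108 and 168 upon APC silencing, a difference of 6.08 (SE 0.26, adjusted p = 0.0423 in limma). The size and the rank both depend on the added 1, since the NonS values sit at the rounding limit and those of NKD1 are at 0. NOTUM entered the test through its APC shRNA values alone. MMP7, a matrilysin that sheds syndecan-1, was at 52 and 74 in NonS and at 37 and 48 upon APC silencing (adjusted p = 0.227). Of the other 8 shedding and release enzymes, 1 was tested and none was called.

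The genes that build the chain backbone showed no call. EXT1, 1 of the copolymerases, was at 10 and 11 in NonS and at 11 and 16 upon APC silencing (adjusted p = 0.364). EXT2, its partner, was at 23 and 25 in NonS and at 27 and 31 upon APC silencing (adjusted p = 0.186). B3GALT6 and B3GAT3, which finish the linker between core protein and chain, overlapped between the conditions, at 17, 19, 18 and 23 and at 16, 17, 16 and 16 in NonS I, NonS II, APC shRNA I and APC shRNA II.

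Chondroitin sulfate shares its linker and its sulfate donor with heparan sulfate, and syndecan-1 can carry both. Of 16 genes of chondroitin chain synthesis, 2 were tested and neither was called. CHPF was at 10 and 13 in NonS and at 18 and 22 upon APC silencing, with an adjusted p of 0.0985 in limma. CHPF2 was at 19 and 23 in NonS and at 27 and 30 upon APC silencing, with an adjusted p of 0.129.

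Among 10 other heparan sulfate or part-time proteoglycans, 5 were at 0 and 1 was tested, CD44, at 40 and 41 in NonS and 32 and 35 upon APC silencing (adjusted p = 0.108 in limma). COL18A1, the basement membrane collagen XVIII, was at 2 and 3 in NonS and at 12 and 15 upon APC silencing and had a mean below 10. It shares 1401 exonic bases with SLC19A1 on the opposite strand, which was at 5 in all 4 libraries.

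On the side of the receptors, DAG1, which encodes dystroglycan, was at 26 and 29 in NonS and at 28 and 32 upon APC silencing (log2 difference 0.12, adjusted p = 0.47 in limma). Of its other laminin globular domain ligands, LAMA5 was at 30 and 35 in NonS and at 30 and 27 upon APC silencing (adjusted p = 0.337). In this list of 10, 7 genes were at 0. Both agrin receptors of muscle, LRP4 and MUSK, were at 0, and 10 of 11 further basement membrane genes were at 0, with COL4A2 at 1 or 2 in every library.

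Of 10 cytoplasmic partners of the syndecans, 5 were tested and none was called. EZR, the membrane-to-actin linker ezrin, was at 157 and 190 in NonS and at 107 and 115 upon APC silencing (log2 difference -0.63, adjusted p = 0.0775 in limma). ACTN4, an α-actinin that binds syndecan-4, was at 311 and 339 in NonS and at 262 and 262 upon APC silencing (log2 difference -0.31, adjusted p = 0.093). Of the 8 partners with a mean of at least 1, 3 had both APC shRNA libraries below both NonS libraries and 0 had both above. Among the genes tested 27.5% lay below and 33.0% above, and among those with means from 1 to under 10 the shares were 14.3% and 20.8%.

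**Figure D5:**
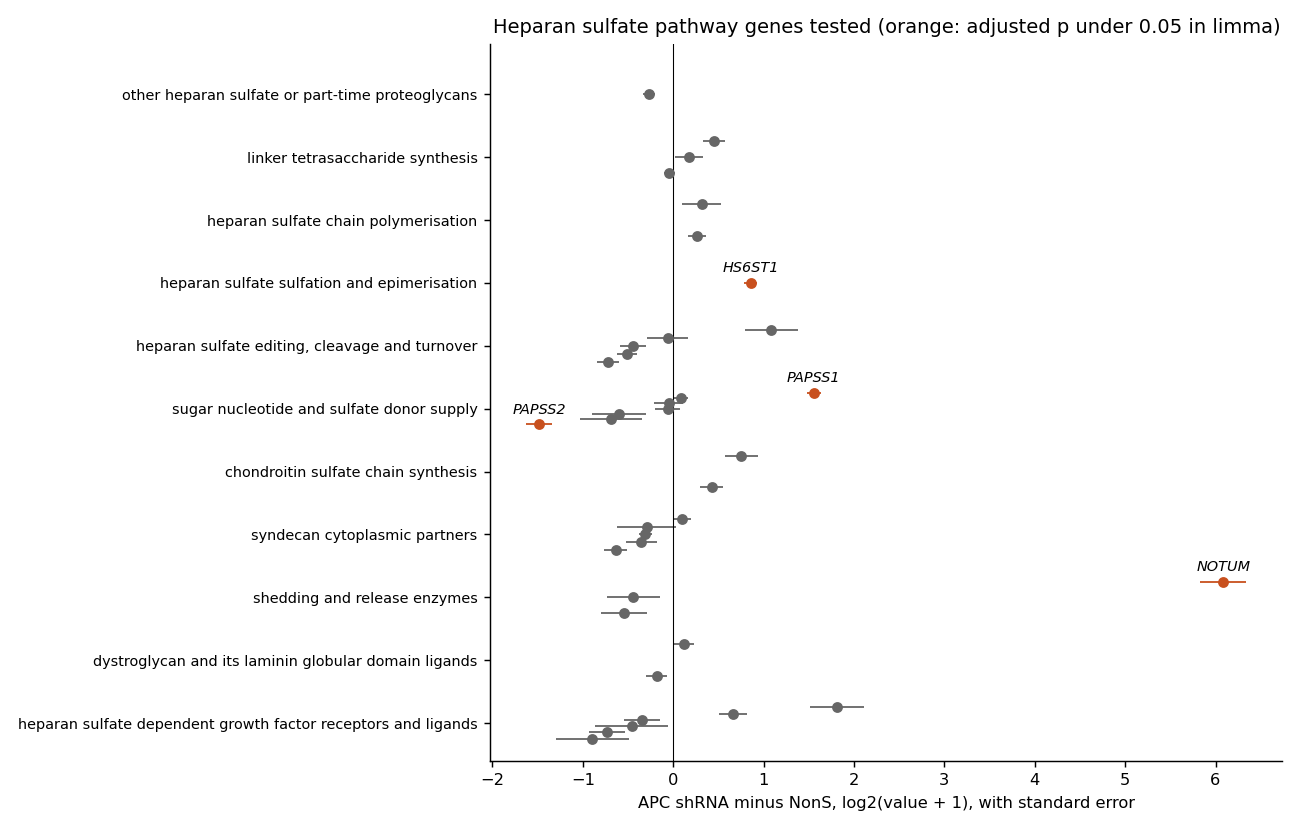
Log2(value + 1) difference between APC shRNA and NonS with its standard error for the 37 pathway genes tested, grouped by list, with genes at an adjusted p under 0.05 in limma in orange and the others in grey. PAPSS1, HS6ST1 and NOTUM lie to the right of 0 and PAPSS2 to the left, and the other 33 genes did not pass.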

How the data were processed

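RNA of 4 HT-29 libraries, 2 NonS and 2 APC shRNA, was compared. The samples were grouped by their labels. The authors trimmed the reads, mapped them to human genome assembly 38 (TopHat2), obtained gene counts with htseq-count and the GENCODE v29 annotation, and compared the groups with DESeq2. The submitters' processing notes name hg19, bcl2fastq 2.19.0.316 and DESeq2 1.4.1. The values the authors deposited are whole numbers, treated here as a score of unstated scale. Replicates varied less than independent counts would (0.484 and 0.363 times the Poisson variance over 4632 and 4531 genes of the NonS and the APC shRNA condition). Multiplied by the length of the longest transcript in kb, the values of a library summed to 980841 to 984873, nearly the same in each, as values scaled per kb and to a fixed number of reads would. The precision of low values is limited by rounding. A deposited table of the authors' own comparison (fold changes, p-values) was not used, and the number of unused columns of per-sample values was 0.

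Gene positions came from GENCODE v29 (19502 of 19729 genes matched), and promoter sequences from RefSeq. The values as deposited were compared as log2(value + 1) with limma 3.58.1 in R 4.3.3 (eBayes with a mean-variance trend) in the 5376 genes whose mean reached 10. The Benjamini-Hochberg method adjusted the p-values over these genes, with calls at an adjusted p under 0.05. The design had foreseen that the values might not be read counts, and no count model was run. The residual degrees of freedom were 2 and the prior degrees of freedom 1.14. With samples of 1 cell line, p-values measure the spread between these samples only. Values are given as mean ± SD. The test was tried on simulated data as a check of the code, and no result given here rests on that trial.

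The genes named are all members, the pathway genes called, up to 2 genes per list with the highest mean, and APC, LARGE2, DAG1, AXIN2, NKD1 and NOTUM. LDLRAD2, SLC19A1, GPC2 and the marker genes named were added after their values were seen. The members and lists were chosen with earlier results of these data known. Alternatives covered the scaling, the filter, the pseudocount, a replicate block, GC content, the moderation, the thresholds and each library left out.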

Additional observations from a re-analysis of the deposited data

How the results depend on the processing

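The differences of GPC1, SDC1 and HSPG2 kept their direction under every alternative run, and those of SDC4 and AGRN did not. HSPG2 was no longer called with every gene above 0 (-1.39, adjusted p = 0.0596 in limma) or with a mean of at least 5 (-1.39, adjusted p = 0.0558), and with a library left out its difference was -1.56 to -1.22. GPC1 passed with median-of-ratios scaling (1.37), upper-quartile scaling (1.39), scaling to equal totals (1.38), GC content correction (1.26) and robust moderation (1.40), with adjusted p of 0.0217 to 0.0307 in limma. The AGRN difference turned to -0.093 with GC content correction, and with a library left out it was -0.21 to 0.33. The SDC4 difference was -0.57 to 0.38 with a library left out, and 0.17 without NonS II. On the log2 scale the difference of GPC4 was 1.85 and 0.58 with 0.1 and 5 added to the values in place of 1, and 1.0 to 1.58 with a library left out, and that of SDC3 was 1.59 and 0.55. The causes were not tested.

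The 10 members gave 2 calls with each of the 3 other scalings, with GC content correction and with robust moderation, and 0 with every gene above 0, with a mean of at least 5, with the study's thresholds and with any library left out. The 4 calls among pathway genes became 8 with median-of-ratios scaling, 8 with equal totals, 9 with every gene above 0, 1 with at least 10 in every sample, 10 with GC content correction, 7 with robust moderation and 0 with the study's thresholds or any library left out. Over all genes, the 233 higher and 199 lower calls became 373 and 405 under median-of-ratios scaling, 952 and 515 with every gene above 0, 442 and 453 with GC content correction, 368 and 352 with robust moderation, and 0 and 0 with the study's thresholds or any library left out. Lower calls were 369 with equal totals, and higher calls were 139 with at least 10 in every sample. A library left out leaves 1 sample in its condition, which is then assumed to vary like the others.

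The replicate numbers are shared between the conditions, but the labels tie no number to a day or a batch of cells, and 2 pairs are too few to settle it. The differences between replicates II and I correlated at 0.724 between the conditions across genes. With the replicate number as a block, 523 genes were higher and 500 lower, 12 pathway genes and 2 members were called, and GPC1 passed (1.40, adjusted p = 0.0468 in limma). With the block and GC content correction together, 1268 genes were higher and 1272 lower, 25 pathway genes and 3 members were called, with GPC1 at 1.26 (adjusted p = 0.00176), SDC1 at -0.43 (adjusted p = 0.00809) and AGRN at -0.093.

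The whole-number scale limits GPC4 and SDC3, and the read depth is unknown.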

Other observations

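Of 15 growth factor receptors and ligands that depend on heparan sulfate, 5 were at 0 in all libraries and 6 were tested, of which none was called in limma. MDK, the heparin-binding cytokine midkine, was at 28 and 35 in NonS and at 89 and 142 upon APC silencing, a log2 difference of 1.81 (SE 0.30, adjusted p = 0.0629 in limma). MET, the receptor of hepatocyte growth factor, was at 51 and 47 in NonS and at 37 and 18 upon APC silencing, a log2 difference of -0.89 (SE 0.40, adjusted p = 0.223). The fibroblast growth factor receptors, named after their values were seen, differed in the direction of their values. FGFR2 was at 7 and 8 in NonS and at 11 and 14 upon APC silencing (adjusted p = 0.0947). FGFR4 was at 38 and 34 in NonS and at 25 and 18 upon APC silencing (adjusted p = 0.109). FGFR3 was at 11 and 14 in NonS and at 6 and 8 upon APC silencing and had a mean below 10.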
